A study of Mus musculus with 9 samples.

Results

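The regions described here are the open chromatin regions, away from promoters, that were called as ATAC-seq peaks in Sox2-EGFP- cells of the embryonic mouse cochlear duct and in no sample of Sox2-EGFP+ cells. ATAC-seq inserts sequencing adapters into accessible DNA, and a peak is a stretch where insertions pile up over the local background. The peaks of all 9 deposited lists were merged where they lay within 100 bp of each other on the 19 autosomes of mm9, which gave 68078 regions. A region was kept when it held a peak in 2 or 3 of the 3 Sox2-EGFP- lists, held none in the 6 Sox2-EGFP+ lists, and lay clear of promoter windows, which reach 1000 bp before and 100 bp past each protein-coding start site of GENCODE vM1. In all, 3736 of the 53848 distal regions (6.94%) met this rule. Another 42384 were called in Sox2-EGFP+ cells only, and 7728 in both.

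All samples came from mouse embryos that carry a Sox2-EGFP knock-in (strain label B6;129S-Sox2tm2Hoch/J), in which EGFP is inserted into the Sox2 coding region, so both cell types share the altered allele. The Sox2-EGFP+ cells were sorted at E12, E14.5 and E16, with 2 replicates at each stage, and the Sox2-EGFP- cells at E14.5 (1 sample, named replicate 2) and at E16 (2 replicates). For the Sox2-EGFP+ cells each replicate pooled the ducts of 1 litter, which had been dissected away from mesenchyme and cochlear nerve, and cells of intermediate fluorescence were not collected. The pair of E16 libraries numbered 1 was sequenced as batch 1, apart from the remaining 7 libraries of batch 2. In 3 of the 4 E16 samples the cell type tag goes against the title, and the title was used. No E12 sample of Sox2-EGFP- cells was analysed here. The peak lists are the only measurement, they hold between 7577 and 66332 peaks, and the authors kept only peaks that another sample of the same cell type shared. A missing call therefore does not show closed chromatin. In such bulk samples, fewer cells of a type and less open chromatin per cell cannot be told apart.

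Distal open chromatin regions include enhancers, which bind combinations of transcription factors and act on start sites that can lie far away. Because enhancers differ between cell types far more than promoters do, the genes around them and the short motifs inside them are commonly read as signs of cell identity. Around the cochlear duct lie the periotic mesenchyme, which forms the fibrocytes and the bony capsule and is marked by factors such as Tbx18 and Pou3f4, and blood vessels, glia, neurons and resident macrophages. The Sox2-negative part of the duct itself is a nonsensory epithelium that forms the roof and the outer wall.

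The 4 sequences shown first are the best-ranked regions called in all 3 Sox2-EGFP- lists next to a gene of the endothelial list (Emcn), the mural list (Mcam), the otic mesenchyme list (Foxc1) and the Schwann cell list (Pmp22). No region called in all 3 lists was nearest to a gene of the macrophage or the melanocyte list. Each run is 300 bases of the mm9 plus strand around the summit, in lower case, with matches to the 18 searched motifs in capitals. They are chr3:136944107-136944406 near Emcn, chr9:43938179-43938478 near Mcam, chr13:32066960-32067259 near Foxc1 and chr11:63169474-63169773 near Pmp22. The capitals mark a pair of E-boxes and a RUNX motif near Emcn, an AP-1 motif near Mcam and an E-box near Foxc1, while the Pmp22 run holds none of the 18 motifs.
Emcn: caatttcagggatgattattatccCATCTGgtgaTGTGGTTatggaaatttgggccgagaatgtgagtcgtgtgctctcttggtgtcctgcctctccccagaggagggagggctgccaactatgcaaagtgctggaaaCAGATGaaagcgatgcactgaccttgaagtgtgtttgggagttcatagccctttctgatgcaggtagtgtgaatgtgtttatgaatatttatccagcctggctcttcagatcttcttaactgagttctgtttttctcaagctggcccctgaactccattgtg
Mcam: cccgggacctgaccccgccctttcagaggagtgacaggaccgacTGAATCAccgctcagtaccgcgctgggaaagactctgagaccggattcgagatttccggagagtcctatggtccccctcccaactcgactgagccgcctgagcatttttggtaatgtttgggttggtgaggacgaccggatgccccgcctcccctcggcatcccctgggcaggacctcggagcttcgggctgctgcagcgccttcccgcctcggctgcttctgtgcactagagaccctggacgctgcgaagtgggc
Foxc1: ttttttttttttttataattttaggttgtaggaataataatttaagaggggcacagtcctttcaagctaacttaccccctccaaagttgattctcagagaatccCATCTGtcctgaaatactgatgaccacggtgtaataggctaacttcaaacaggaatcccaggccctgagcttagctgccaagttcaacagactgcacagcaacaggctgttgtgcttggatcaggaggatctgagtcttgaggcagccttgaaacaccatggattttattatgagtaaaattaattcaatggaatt
Pmp22: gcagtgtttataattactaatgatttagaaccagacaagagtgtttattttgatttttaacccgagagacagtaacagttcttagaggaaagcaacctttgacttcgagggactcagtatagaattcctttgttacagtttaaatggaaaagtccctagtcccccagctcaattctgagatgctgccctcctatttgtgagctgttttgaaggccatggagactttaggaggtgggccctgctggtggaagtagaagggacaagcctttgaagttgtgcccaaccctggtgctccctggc

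A second set of sequences is shown for an arrangement described further on, in which the homeodomain core TAAT stands exactly 6 bases before the E-box CAGATG. These are the first 6 by mean rank among the regions that hold it and were called in all 3 lists, chosen after the values were seen. Each run of 40 bases is named by its nearest gene, is read on the mm9 strand given, and has both motifs in capitals.
Rpl34 (chr3:130570017-130570056, minus strand): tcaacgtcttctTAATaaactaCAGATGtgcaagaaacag
Nuak1 (chr10:83675325-83675364, plus strand): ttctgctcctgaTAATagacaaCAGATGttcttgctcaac
Foxp4 (chr17:48125900-48125939, minus strand): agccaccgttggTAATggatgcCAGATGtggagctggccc
Foxs1 (chr2:152751453-152751492, minus strand): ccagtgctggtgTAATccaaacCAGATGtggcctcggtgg
Rpl28-ps4 (chr6:117282848-117282887, minus strand): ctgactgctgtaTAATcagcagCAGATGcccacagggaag
Cd44 (chr2:102756966-102757005, minus strand): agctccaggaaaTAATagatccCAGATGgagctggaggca

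The peak calls chose the regions, so calls and heights are given as a description, with no test. Of the 3736 regions, 1566 (41.9%) held a peak in all 3 Sox2-EGFP- lists. The other 2170 held a peak in 2 lists, of which 1047 were called in both E16 lists alone. Just outside the rule lay 1295 distal regions with 2 Sox2-EGFP+ calls, and in 1091 of these both calls came from the 2 longest Sox2-EGFP+ lists. No distal region with 2 or 3 Sox2-EGFP- calls had a single Sox2-EGFP+ call, since the authors removed peaks that were not shared. The regions made up 25%, 28% and 28% of the distal peaks in the E14.5 list and E16 lists 1 and 2. Their median fold enrichment over the local background was 3.94, 5.15 and 4.58, against 4.07, 5.8 and 4.8 for regions called in both cell types. Only 4.87%, 3.15% and 3.56% of them were in the highest 10% of the distal peaks of their list, and 60.3%, 63.1% and 59.7% lay below its median.

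The regions were narrow and lay far from start sites. Their median width was 413 bp, against 500 bp for regions of Sox2-EGFP+ cells only and 699 bp for regions of both. Merged width rose with the number of calls, so the classes are not like for like. It was 365 bp with 2 Sox2-EGFP- calls, 495 bp with all 3, and 731 bp for Sox2-EGFP+ only regions with 4 or more calls. The median distance of the Sox2-EGFP- only regions to the nearest protein-coding start site was 45.6 kb, and 28% lay at least 100 kb away, against 22.1% and 14.6% of the other classes. Of the regions, 43% lay in introns, 2.38% in exons and 54.6% between genes. Their GC content (median 49.1%) was close to that of the Sox2-EGFP+ only regions (48.9%) and below that of the shared ones (54.4%). In 1109 cases (29.7%) another such region lay within 50 kb.

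Each region was assigned to its nearest protein-coding start site, which names a neighbour and not a proven target. By this assignment 2631 of 21275 autosomal genes (12.4%) had at least 1 region, and 719 had at least 2. Of the 2631 genes, 2415 (91.8%) also had regions of Sox2-EGFP+ cells only. That class is far larger, with 42384 regions against 3736. The same share over all genes is not given here, so the overlap is a description and not a result about these loci. The 15 lists of cell type marker genes below were read against the 12.4% of genes and the 6.94% of distal regions.

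The otic mesenchyme list held the highest shares of the 15 lists. Of its 15 autosomal genes 10 had at least 1 region (66.7%), and 22 of the 108 distal regions nearest to its genes (20.4%) were called in Sox2-EGFP- cells only. Tbx18, a T-box factor of the periotic mesenchyme, had 4 of its 8 distal regions among them. The tallest, chr9:87576809-87577572, lay 48.9 kb downstream of its start, with fold enrichments of 4.82 at E14.5 and of 10.4 and 5.36 at E16. A second region with all 3 calls lay at -1.78 kb, with fold enrichments of 2.69, 4.42 and 3.56. The regions at -202 and -233 kb each had 2 calls. Of the other 4 Tbx18 regions, 3 were called in both cell types and 1 in Sox2-EGFP+ cells only.

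The factors that specify connective tissue had regions of their own. Twist1, a bHLH factor of mesenchyme, had 2 of 5, and the taller, chr12:34736865-34737358, lay 94.6 kb from its start in an annotated untranslated exon of Hdac9. Its fold enrichment was 4.42 at E14.5 and 9.7 and 7.92 at E16. Twist2 had 1 of 9, in its own intron. Prrx1, a homeodomain factor of limb and face mesenchyme, had 1 of 2, with fold enrichments of 4.08, 5.41 and 7.5. The forkhead genes Foxc1 (3 of 26) and Foxc2 (3 of 20) were the members of the list with the most distal regions, most of them called in Sox2-EGFP+ cells only. The Foxc1 region printed above lies in an intron of Gmds, with fold enrichments of 4.9, 8.7 and 6.16.

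The list also held genes of the fibroblast matrix. Dcn, which encodes the proteoglycan decorin, had 3 of 11, all with calls in all 3 lists, with offsets of -229, -213 and -196 kb from its start, where minus means upstream. Coch, which encodes cochlin, the abundant matrix protein of the spiral ligament and limbus, had 2 of 3, at -88.5 and -89.1 kb. These 2 are neighbours (chr12:52605166-52605407 and chr12:52605563-52606077) that lie just beyond the merging distance of 100 bp, and they may be parts of 1 element. The taller of them had fold enrichments of 4.18, 7.44 and 4.25. Col1a2 had 2 of 4 and Col3a1 had 1 of 2, both fibrillar collagen genes. Col1a1, Pdgfra, Prrx2, Lum and Postn had none.

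**Figure D1:**
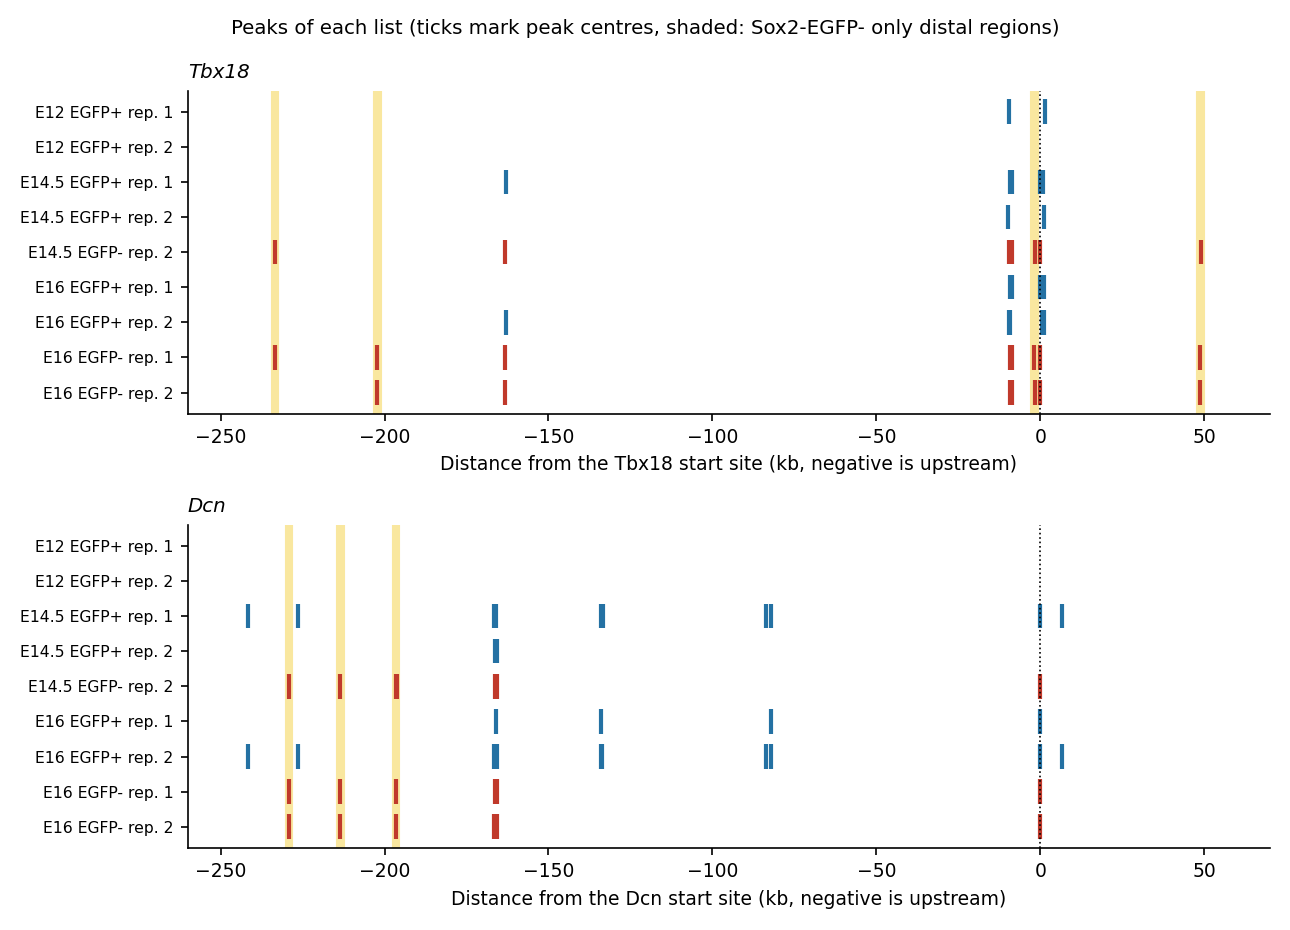
Peaks of the 9 lists around the start sites of Tbx18 (top) and Dcn (bottom), with distance from the start site in kb on the x axis and 1 row per sample. Blue ticks are peak centres in Sox2-EGFP+ samples, red ticks those in Sox2-EGFP- samples, and the shaded bands (drawn wider than the regions) mark those called in Sox2-EGFP- cells only, 4 at Tbx18 and 3 at Dcn.

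The endothelial list was second, with 6 of 14 genes (42.9%) and 11 of 71 distal regions (15.5%). Emcn, which encodes the endothelial sialomucin endomucin, had 2 of 4 distal regions. The region printed above (chr3:136943762-136944566, offset -59.9 kb) had fold enrichments of 8.03, 12.4 and 6.21, and the other, at -18.5 kb, was called at E16 only. Cdh5, the gene of vascular endothelial cadherin, had 3 of 19, and Erg, an ETS factor of endothelium, had 3 of 9. Flt1, Tek and Sox17 had 1 each, while Pecam1, Kdr, Cldn5 and 5 others had none. The endothelial share fell to 5.56% without E16 Sox2-EGFP- replicate 1 (4 regions) and to 7.04% without replicate 2 (5 regions), where the share over all distal regions was 3.95% and 3.96%. The mural list, of pericytes and smooth muscle, had 3 of 10 genes and 3 of 22 regions (13.6%), with 1 region each at Mcam, Notch3 and Cspg4. It had 1 region (4.55%) without E14.5 Sox2-EGFP- replicate 2, under the 4.86% of all distal regions there, and 1 without E16 Sox2-EGFP- replicate 2.

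Cartilage and bone genes had 11 of 76 distal regions at 5 of 12 genes, between the endothelial and the mural list in share. Runx2, the factor that commits cells to bone, had 3 of 8, all in its introns. Col9a1, a cartilage collagen gene that the duct epithelium also uses, had 3 of 10, Matn1 and Sp7 had 2 each, and Col2a1 had 1. Acan and Matn3 had none. Without E16 Sox2-EGFP- replicate 1 or replicate 2 the list had 6 regions (7.89%), and without E14.5 Sox2-EGFP- replicate 2 it had 7 (9.21%).

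The remaining lists lay at or under the share of all distal regions, apart from the erythroid list with 1 of 12 (8.33%). The macrophage list had 0 of 15 distal regions at 14 genes, Csf1r and Cx3cr1 included, and none of its promoters had a peak in a Sox2-EGFP- list. The lymphoid and the granulocyte and mast cell lists had 0 of 13 regions each, and the skeletal muscle list 0 of 47. These zeros allow a share of up to 20% for the macrophage list, 23.1% for the lymphoid and the granulocyte lists and 6.38% for skeletal muscle (3 counts of the total, for counting error only). The melanocyte list had 4 of 66 (6.06%), with 3 at Kit, the receptor of melanoblasts and mast cells, all called at E16 only, and 1 at Dct. The Schwann cell list had 2 of 48 (4.17%), both at Pmp22, and none at Sox10. The neuron list had 3 of 63 (4.76%), at Stmn2, Snap25 and Elavl4.

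Genes of the duct epithelium also had such regions. The nonsensory duct list had 4 of 75 (5.33%), with 2 at Otx2, a homeodomain factor of the nonsensory wall, and 1 each at Lmx1a and Bmp4. The prosensory list had 9 of 169 (5.33%). Jag1, a Notch ligand of the prosensory domain, had 3 of 13, Atoh1, the hair cell bHLH factor, had 2 of 11 and Eya1 and Prox1 had 1 each. Both Atoh1 regions lay at -112 and -131 kb, with calls in all 3 lists. Sox2 had 0 of 36 and Isl1 0 of 8. The epithelial list had 3 of 48 (6.25%), at Krt8, Krt18 and Grhl2.

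**Figure D2:**
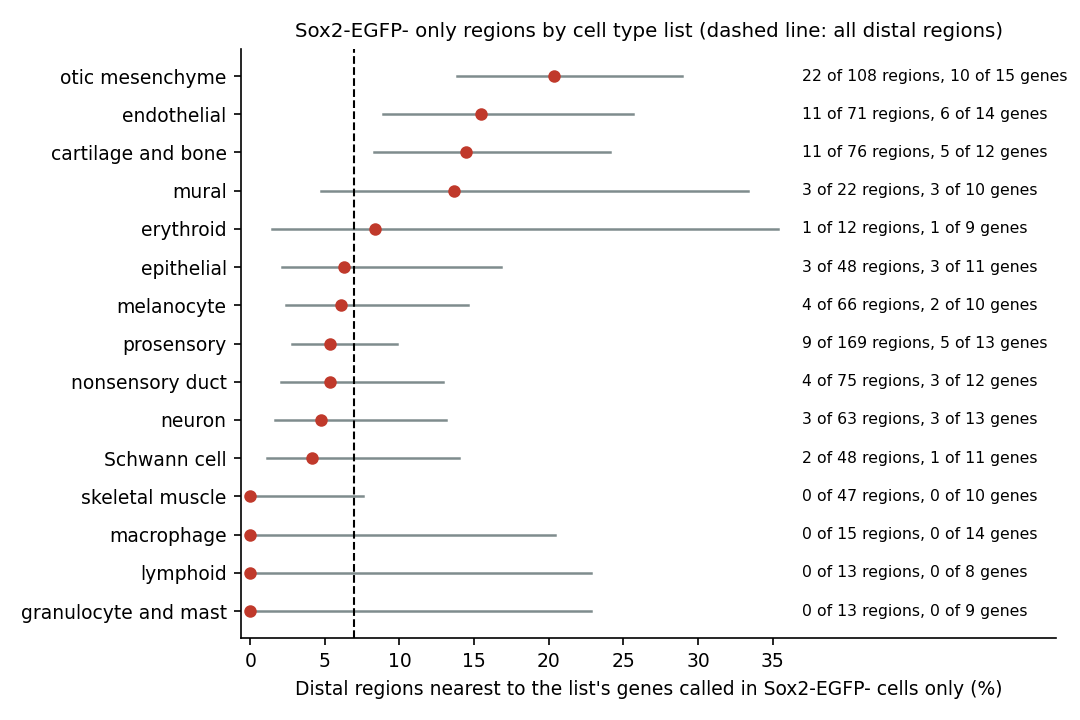
Share of the distal regions nearest to the genes of each cell type list that were called in Sox2-EGFP- cells only, in percent, with 95% Wilson intervals (counting error only) as bars. The dashed line marks the 6.94% of all distal regions, and the otic mesenchyme list lies highest with 22 of 108 regions.

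Promoters were outside the rule and give a separate view of the same lists. A promoter peak in 2 or 3 Sox2-EGFP- lists and in no Sox2-EGFP+ list was found at 66 of 21275 genes (0.31%). Of these, 2 are otic mesenchyme genes, Col3a1 and Prrx1, and 1 is endothelial, Emcn, and no other list had one. Altogether 23 genes had both such a promoter and a distal region of the same kind. Beside Emcn, Col3a1 and Prrx1 these include Eng, an endothelial co-receptor of TGF-beta, Fap and Col6a3, which fibroblasts use, Apod and Ccl2, all chosen from the 23 after their names were seen. The opposite pattern, a promoter peak in at least 2 Sox2-EGFP+ lists and none in Sox2-EGFP- lists, held at 1508 genes (7.09%). It held at 10 of the 11 epithelial genes, among them Epcam, Cdh1 and Esrp1, and the exception was Cldn3. At these 10 genes no Sox2-EGFP- list held a promoter peak, while 9 distal regions of the epithelial list were called in both cell types and 3 in Sox2-EGFP- cells only. All 13 prosensory genes had a promoter peak in lists of both cell types.

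The genes with the most regions differed in how many they had beside regions of Sox2-EGFP+ cells. Auts2 had 9, among 76 distal regions, and 5 of the 9 were called in all 3 lists. Rarb, a retinoic acid receptor, had 9 of 16, the highest share among the 20 genes with the most regions. Ets1, an ETS factor of endothelium and mesenchyme, had 8 of 32. Runx1t1 had 7 of 17, with 6 of the 7 called in all 3 lists, and Gli2, an effector of hedgehog signalling, had 7 of 24. Arhgap26 and C130026L21Rik also had 7. Runx1, Efnb2, the gene of the ligand ephrin-B2, and Rad51l1 had 6 each, and all 6 of Rad51l1 lay in its own introns. At 5 regions 16 genes were tied, of which the 10 with the best-ranked region are named, Adamts20, Fat4, Trpm3, Adamtsl1, Hmga2, Klf4, A2ld1, Irx3, Ubash3b and Gm12824. The A2ld1 regions lay inside other genes, 4 in Pcca and 1 in Tmtc4. Of the 20 genes so named, C130026L21Rik had a promoter peak in none of the Sox2-EGFP- lists and the others in all 3. All 20 also had a promoter peak in 3 to 6 of the Sox2-EGFP+ lists. A promoter peak in 2 or 3 Sox2-EGFP- lists was found at 56.7% of all genes and at 71.2% of the genes with a region.

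The 10 regions ranked highest by −log10 p with calls in all 3 lists were not nearest to any of the marker genes. No cell type list had more than 22 of the 3736 regions, so finding none among 10 is not read as a result. The region nearest to Clec7a (chr6:129429793-129430933, offset -7.57 kb) had fold enrichments of 7.12, 10.3 and 7.02. That nearest to Nos2 (chr11:78700558-78701344, offset -33.3 kb) had 7.59, 11 and 9.67. Both genes are used by macrophages among other cells, whereas the macrophage list itself had no region. The others were nearest to Dnm3, Lsm5, Actn4, Stxbp6, Ppm1h, Rpl34, Rai14 and Gsdmc, with fold enrichments from 4.84 to 11.3. The Rpl34 region lay at -137 kb and holds the pair of motifs printed first in the second set above.

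Motifs were counted on both strands within 200 bp of the summit of the best-ranked peak of each region, in 401 bases. The E-box CAGATG, a site of bHLH factors such as the mesenchymal Twist proteins and the proneural Atoh1 and Neurod1, stood in 1579 regions (42.3%), against 29.5% of the Sox2-EGFP+ only and 27.7% of the shared regions and 30.1% of all distal regions. The forkhead motif TGTTTAC stood in 9.64%, against 5.4%, 5.16% and 5.66%. The POU motif ATGCAAAT stood in 4.79% (2.34%, 2.99% and 2.6%), and the TEAD motif TGGAATG in 10.9% (8.51%, 7.39% and 8.51%). The ETS motif ACAGGAAG stood in 7.92% (4.65%, 5.27% and 4.97%) and the PU.1 motif GAGGAAGT, which shares the letters AGGAAG with it, in 4.1% (2.32%, 3.07% and 2.55%). ETS factors are used by endothelium and, as PU.1, by macrophages.

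The GRHL, GATA and SOX motifs were less frequent than in Sox2-EGFP+ only regions. The GRHL motif AACCNGTT, read by the grainyhead factors of epithelium, stood in 1.66%, against 4.24% of Sox2-EGFP+ only, 2.73% of shared and 3.84% of all distal regions. The GATA motif AGATAAG stood in 3% (7.97%, 3.08% and 6.93%) and the SOX motif CCATTGTT in 1.55% (3.4%, 1.99% and 3.07%). The motif of CTCF, which marks boundaries open in most cells, stood in 2.7%, against 9.19%, 13.9% and 9.42%. Of the other motifs, RUNX (TGTGGTT) stood in 9.5% against 7.82% of all distal regions, AP-1 (TGANTCA) in 14.6% against 12.4%, CEBP (TTGCNNCAA) in 3.13% against 3.26%, IRF (GAAANNGAAA) in 4.55% against 4.88%, TBX (AGGTGTGA) in 1.02% against 1.66%, MEF2 (CTATTTATA) in 0.535% against 0.433% and NFI in 0.134% against 0.232%.

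**Figure D3:**
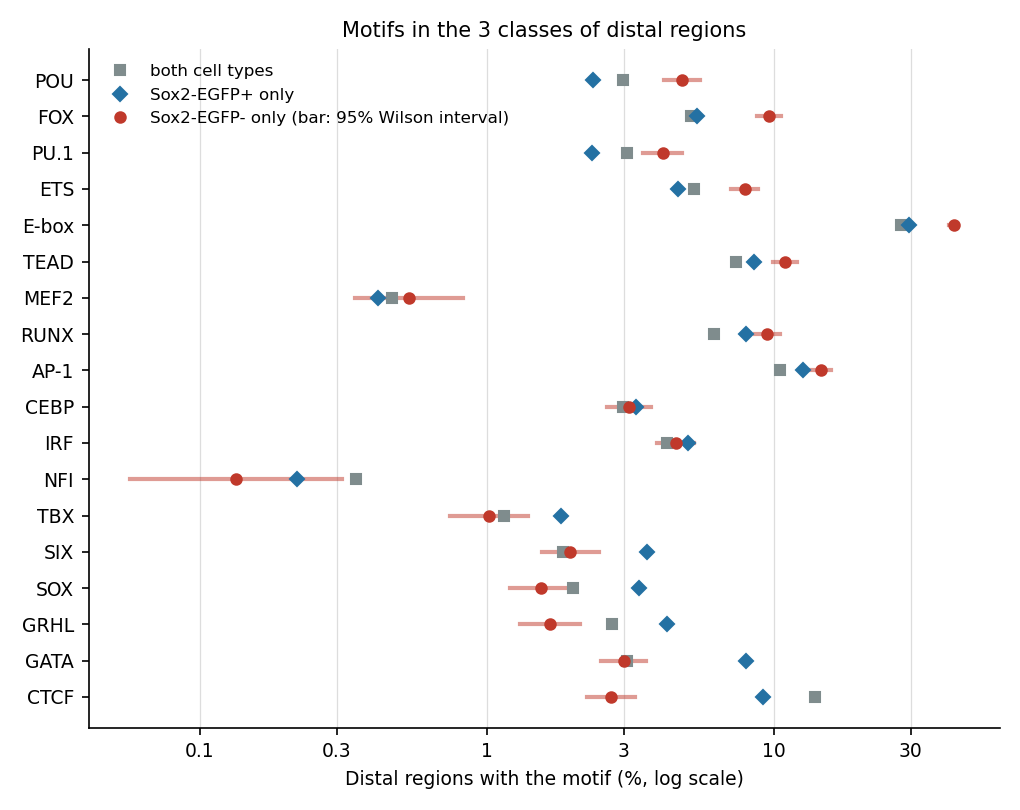
Percent of distal regions with each of the 18 motifs (log scale), for regions called in Sox2-EGFP- cells only (red, with 95% Wilson intervals), in Sox2-EGFP+ cells only (blue) and in both (grey). The motifs are ordered by the ratio of the red to the blue value, with POU and FOX at the top and GATA and CTCF at the bottom.

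The kinds of E-box went in opposite directions, a count added after the values above were seen. Among the 10 kinds of the general form CANNTG some were more and others less frequent. The kind CAGCTG stood in 38.1% of the Sox2-EGFP- only and 26.3% of the Sox2-EGFP+ only regions (28.2% of all distal regions), CATATG in 8.91% and 5.71% (5.69%) and CACATG in 28.4% and 23.5% (23.1%). CACCTG, the form preferred by the Snail and Zeb repressors among others, stood in 14.8% against 35.2%, in 25% of the shared and in 32.3% of all distal regions. CATATG is the other form that Twist proteins are known to prefer.

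In a small share of the regions the E-box CAGATG stood at a fixed distance from a homeodomain core. This spacing was picked for its count in these same regions. The intervals below give counting error only and make no allowance for that choice. The arrangement TAAT, exactly 6 bases, CAGATG was present in 37 of the 3736 regions (0.99%, 95% Wilson interval 0.72% to 1.4%). It was present in 35 of the 42384 Sox2-EGFP+ only regions (0.0826%, 0.059% to 0.11%) and in 13 of the 7728 shared regions (0.168%, 0.098% to 0.29%). At the other 20 spacings from 0 to 20 bases the count in the Sox2-EGFP- only regions ran from 3 to 13, with a median of 4. Over all 83 other combinations of spacing, order and orientation of TAAT and CAGATG it ran from 0 to 13. TAAT alone was no more frequent than in Sox2-EGFP+ only regions (79.2% against 79.8%). A pair of this layout is known from embryonic face and limb mesenchyme, where Twist1 binds beside homeodomain factors, and a match of letters does not show binding. The 37 regions had 37 different nearest genes, 18 of them were called in all 3 lists, and the median distance of the pair from the summit was 83 bases. Among the nearest genes were Foxp4, Foxs1, Cd44, Cxcl12, Tbx1 and Nfatc1, named after their values were seen.

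**Figure D4:**
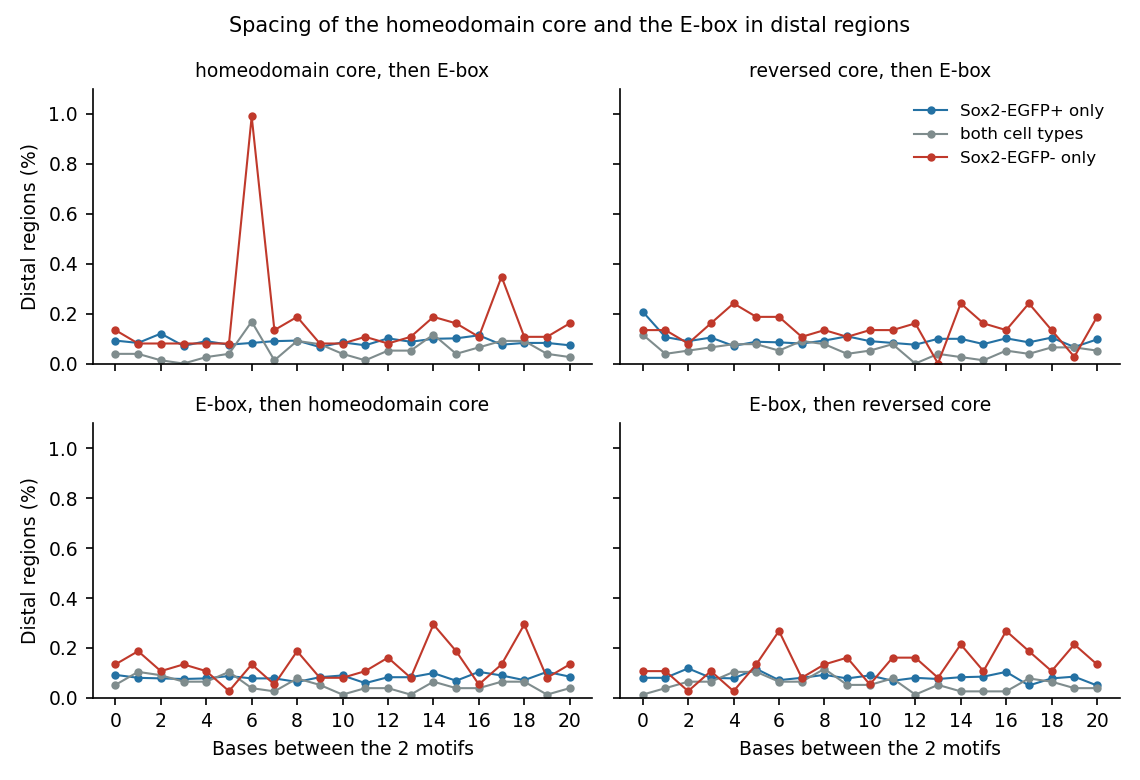
Percent of distal regions that hold the homeodomain core TAAT (or its reverse) and the E-box CAGATG at each spacing from 0 to 20 bases, for the 4 orders and orientations. Regions called in Sox2-EGFP- cells only (red) reach 0.99% at 6 bases in the first arrangement, where the Sox2-EGFP+ only regions (blue) stand at 0.0826% and the shared regions (grey) at 0.168%.

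Whether these motifs differ between whole samples, and not just between chosen regions, was tested on the 2000 distal peaks of each list with the highest −log10 p, so that all lists count equally. The regions described here made up 14.4%, 12.8% and 14.8% of these peaks in the E14.5 list and E16 lists 1 and 2. A two-sided exact permutation test over all 84 choices of 3 of the 9 samples was used, in which the smallest possible p is 0.0119, with Benjamini-Hochberg adjustment over the 18 motifs. Of the 18 motifs 7 passed, and in all 7 the 3 Sox2-EGFP- samples lay apart from the 6 Sox2-EGFP+ samples (exact p = 0.0119, adjusted p = 0.0306). The study had already reported Sox, Gata and Grhl2 motifs as more enriched in the Sox2-EGFP+ cells. It had reported Ets and Pou motifs as more enriched in the Sox2-EGFP- cells. The motif tests are therefore not independent of earlier results of the same data.

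Motifs for E-box, ETS, PU.1 and POU were more frequent in the Sox2-EGFP- samples. The E-box CAGATG stood in 26.6% of the peaks at E14.5 and in 27.4% in both E16 samples, and in 19.7% to 24.1% (median 23.1%) in the Sox2-EGFP+ samples. The ETS motif stood in 5.7%, 5.6% and 5.65%, against 3.35% to 4.35% (median 3.75%), and the PU.1 motif in 3.5%, 4.1% and 3.15%, against 1.7% to 2.5% (median 2.12%). The POU motif stood in 3.8%, 3.4% and 4.15%, against 2.15% to 2.95% (median 2.25%). In each case the groups did not overlap.

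Motifs for GATA, SOX and GRHL were less frequent. GATA stood in 2.25%, 2.4% and 2.35% of the peaks, against 3.25% to 6.35% (median 5.47%). SOX stood in 1.9%, 1.15% and 1.65%, against 2.8% to 5.1% (median 3.65%), and GRHL in 2.15%, 1.8% and 1.95%, against 3.35% to 4.75% (median 4.25%). The FOX difference did not pass (5.2% ± 0.786 against 4.48% ± 0.311, SD, n = 3 and 6, exact p = 0.0714, adjusted p = 0.143), nor did the CTCF difference, which went against the count over regions (9.57% ± 0.535 against 7.19% ± 1.79, exact p = 0.107, adjusted p = 0.165). The median GC content of the peaks was 55.6% to 57.6% in the Sox2-EGFP- samples and 53.9% to 57.4% in the Sox2-EGFP+ samples, and its part in the motif shares was not tested.

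Each of the 7 differences kept its direction within batch 1 (1 sample of each type), within batch 2, at E14.5 and at E16. For GATA it was -0.85 percentage points in batch 1 and -3.32 in batch 2. With the regions described here left out of the peaks, an alternative chosen after seeing the data, the E-box difference fell from 4.43 to 1.79 points and no longer passed (exact p = 0.0833, adjusted p = 0.15), while the other 6 motifs still did (adjusted p = 0.0268), with TEAD and CTCF besides. This alternative removed peaks from the Sox2-EGFP- lists alone, and regions called in Sox2-EGFP+ cells only stayed in. Its differences are therefore not independent of the calls. The pair of TAAT and CAGATG was picked for its count in the regions described here, so its shares are given as a description, with no test. It stood in 0.45%, 0.7% and 0.4% of the peaks, against 0.05% to 0.2% (median 0.125%), or 9, 14 and 8 of 2000 peaks against 1 to 4. With the regions left out of the peaks the difference went from 0.383 to 0.2 points. CACCTG, likewise picked after its count was seen and not tested, stood in 19.1%, 16.4% and 18.9%, against 30.9% to 34.3% (median 33.6%).

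**Figure D5:**
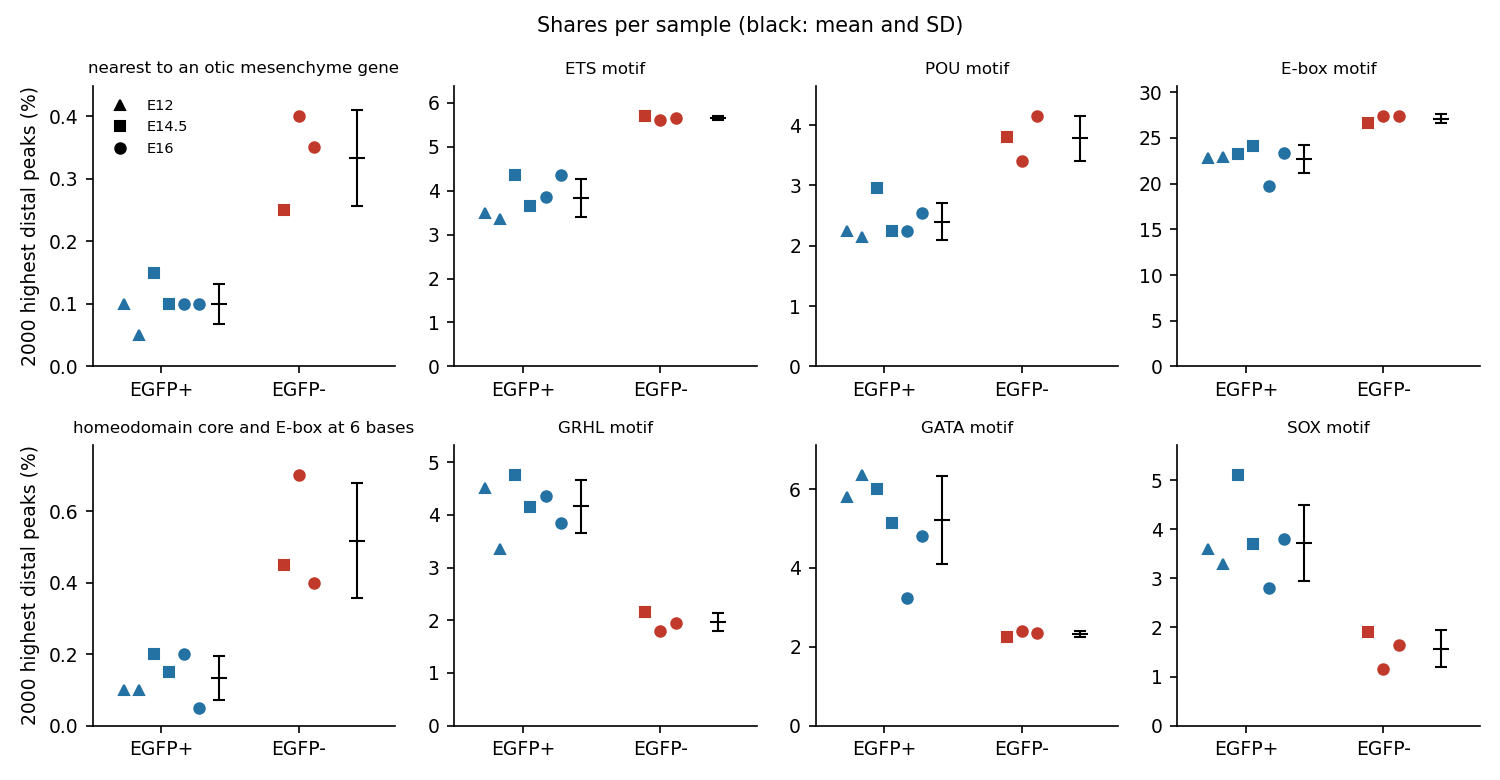
Percent of the 2000 highest distal peaks of each sample that are nearest to an otic mesenchyme gene or hold a motif, by cell type (blue Sox2-EGFP+, red Sox2-EGFP-) and stage (triangle E12, square E14.5, circle E16), with the mean and SD in black. The panels are a selection, and the pair of motifs was picked for its count in the regions described here. In all 8 panels the 3 Sox2-EGFP- samples lie outside the range of the 6 Sox2-EGFP+ samples. Of the 18 motifs tested 7 passed and of the 8 lists 2, and FOX and CTCF, among others not drawn, overlap between the cell types.

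The same test of 8 cell type lists passed for 2. Otic mesenchyme genes were the nearest to 0.25% of the peaks at E14.5 and 0.4% and 0.35% at E16 (5, 8 and 7 peaks), against 0.05% to 0.15% (median 0.1%, 1 to 3 peaks) in the Sox2-EGFP+ samples (exact p = 0.0119, adjusted p = 0.0476 over 8 lists). The study had already named Coch and Tbx18, both on this list, for their accessibility in these Sox2-EGFP- cells. This test is therefore not independent of earlier results of the same data. Schwann cell genes were nearest to none of the 2000 peaks in the 3 Sox2-EGFP- samples and to 0.1% to 0.15% in the Sox2-EGFP+ samples (exact p = 0.0119, adjusted p = 0.0476), where a count of 0 allows up to 0.15%. The endothelial list did not pass (0.133% ± 0.0289 against 0.075% ± 0.0274, SD, n = 3 and 6, exact p = 0.0595, adjusted p = 0.159), nor did the macrophage, mural, melanocyte, nonsensory duct and prosensory lists (adjusted p from 0.343 to 1). With the regions left out of the peaks, the otic mesenchyme difference fell from 0.233 to 0.117 percentage points and neither list passed (exact permutation, adjusted p = 0.0952 for both). The cartilage and bone list, outside the 8 tested, went the other way from its count of regions, with 0.05% to 0.1% of the peaks in Sox2-EGFP- samples and 0.15% to 0.3% in Sox2-EGFP+ samples.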

How the data were processed

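ATAC-seq peaks of 9 samples were analysed (6 Sox2-EGFP+, 3 Sox2-EGFP-). Per the methods of the study, the authors aligned reads to mm9 with Bowtie2, called peaks in each sample with MACS2, removed artefact regions and kept peaks replicated in another sample of the same type. The fold enrichment of a deposited peak is its pileup over the local background, and each deposited −log10 p and −log10 q is the MACS2 significance of that peak in its own sample. The deposited score is the −log10 q rescaled to a whole number by MACS2 and was not used. The lists hold no read counts, and read depth was not used here.

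Regions were merged at 100 bp with an overlap of 1 bp. The software was NumPy 2.4.6 and SciPy 1.17.1 under Python 3.11.15, with figures drawn in matplotlib 3.10.9. Merging was checked against bedtools 2.31.1, and the rule and the tests on simulated data. Start sites, exons and sequence came from GENCODE vM1 and its mm9 reference, in which no peak lay past a chromosome end. Nearest start sites were those of 21275 autosomal protein-coding genes. Of 174 list genes, 3 are X-linked and outside the rule. Results for some list genes and regions, and for 1 of the 18 motifs, are not reported here. Shares of the 2000 highest distal peaks were compared by exact permutation of the samples with Benjamini-Hochberg adjustment and a threshold of 0.05. Replicates are separate samples by label, and for the Sox2-EGFP- samples nothing says that they came from separate litters, so p-values measure the spread between these samples.

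The regions and gene lists were chosen with earlier results of these data known. Genes were named by these rules: the 20 genes with the most regions (ties by the mean rank of the best region), the 10 best-ranked regions with calls in all 3 lists, and per list up to 4 genes with the most regions and 2 with none. Other genes are given where a list is counted out. Sequences are from the best-ranked region with all 3 calls of 6 lists, off chromosome 18. Alternatives were other merging, promoter and score settings, leaving out samples, other numbers of peaks, genes within 50 kb, motifs within 100 bp and a replicate block.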

Additional observations from a re-analysis of the deposited data

Results flagged for a closer look

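Among the 26 values compared over the 6 Sox2-EGFP+ samples, 4 had a sample far from the others by Dixon's criterion, which chance gives in about 1 of 20 groups. The E-box CAGATG was lowest in E16 Sox2-EGFP+ replicate 1, at 19.7% of the 2000 highest distal peaks, where the other 5 samples lay between 22.8% and 24.1%. That sample was sequenced in batch 1. For the melanocyte list E12 Sox2-EGFP+ replicate 2 stood highest, with 0.15% of its peaks. The macrophage list reached 0.05% in the same sample and 0 in the others. The mural list reached 0.05% in E16 Sox2-EGFP+ replicate 1 and 0 in the others. A share of 0.05% is 1 peak of 2000.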

How the results depend on the processing

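The number of regions was 3736, and 1914 with a −log10 q of at least 5 and 1566 with calls required in all 3 Sox2-EGFP- lists. It was 2127 to 3777 when each sample was left out, with 2619 without E14.5 Sox2-EGFP- replicate 2, 2127 without E16 Sox2-EGFP- replicate 1 and 2133 without replicate 2. Of the 3845 regions found in the 20000 highest peaks of each list, 2270 (59%) were shared with the 3736. The share of the otic mesenchyme list lay above that of all distal regions under every setting, while the endothelial list lay below it with every gene within 50 kb counted (6.45%). The number of lists above it was 5, 3 with genes within 50 kb and 4 to 9 without each sample, with 9 without E16 Sox2-EGFP- replicate 2.

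The sample tests are at the limit of the design. Of 8 lists 2 passed, and 0 passed with the 1000 highest peaks, with 5000 and no E12, with E14.5 and E16 alone (smallest p 0.0286), in batch 2 alone (smallest p 0.0476), without any 1 sample (0 to 0), outside the regions or over all 15 lists (both added after seeing the data), against 5 with all distal peaks. Of 18 motifs 7 passed, and 0 passed under the first 4 of these settings, against 13 with motifs within 100 bp. Without each sample 0 to 7 passed, with 0 without E12 Sox2-EGFP+ replicate 1, E14.5 Sox2-EGFP+ replicate 2 or any Sox2-EGFP- sample. With a replicate block of 3 pairs, where the smallest p is 0.25, 0 lists and 0 motifs passed. The study states that E16 cells of both types were collected in parallel, while the main test treats the samples as unpaired. The E16 deviations correlated at -0.28 over 26 values, but with 1 stage to draw on this cannot decide whether equal numbers pair the samples.

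Directions turned only for differences that had not passed, in percentage points. The melanocyte list went to -0.0167 (1000 highest), -0.00333 (5000 without E12) and -0.0147 (all peaks), nonsensory duct to 0.00667 (5000 without E12) and 0.1 (50 kb), mural to -0.00833 without E16 Sox2-EGFP- replicate 2 and macrophage to 0.0167 (50 kb). AP-1 went to -0.1 (1000 highest) and -0.242 (outside the regions), CEBP to 0.0667 (1000 highest), 0.0253 (all peaks), 0.085 (batch 2) and, without each sample, from -0.342 to 0.0583 (without E16 Sox2-EGFP- replicate 1), TEAD to 0.342 (5000 without E12) and 0.323 (all peaks) and IRF to -0.267 (100 bp, adjusted p = 0.0495 by exact permutation). Beyond the limit set by the number of samples, the cause was not tested. The lists are of unequal length, which limits every count of missing calls, and read depth was not used here.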

Other observations

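The X chromosome was outside the rule. Under the same rule, 38 of its 782 distal regions (4.86%) were called in Sox2-EGFP- cells only, nearest to 30 genes. Pou3f4, the POU factor of otic mesenchyme, had 3 of its 3 distal regions among them, at -637, -505 and -11.7 kb. Pou3f4 is named because it is on the otic mesenchyme list, and the study had already named it for its accessibility in these Sox2-EGFP- cells. Bcor had 4 of 36, Efnb1 and Pcdh19 had 2 of 8 each and Pgrmc1 had 2 of 4. Gpr143, of the melanocyte list, had 0 of 1.

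At 15 genes all distal regions, 2 each, were called in Sox2-EGFP- cells only. The 15 include Ptgfr, a prostaglandin receptor gene, Npy1r, a neuropeptide Y receptor gene, and Pdlim7, chosen after their names were seen.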
